A study of Mus musculus with 2 samples.

Results

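The miR-17-92 cluster and its paralogs were examined in Müller glia (MG), which span the retina and support its neurons, from wild-type (wt) mice and from mice in which Dicer1 was deleted in MG (Dicer-CKO_MG). A probe was included when its unstarred name held any of the 12 miRNAs miR-17, miR-18a, miR-18b, miR-19a, miR-19b, miR-20a, miR-20b, miR-25, miR-92a, miR-93, miR-106a and miR-106b, and 10 of the 566 mouse probes of the panel met this rule. One probe reads miR-17 and miR-106a together and another reads miR-20a and miR-20b together, so each of these pairs has a single count. Mature miRNAs were ligated to tags, hybridized to barcoded probes (NanoString nCounter) and counted without amplification, so raw counts are numbers of barcodes.

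The wt mice carried Rlbp1-CreER, an inducible Cre under the promoter of a gene expressed in MG, and a floxed-stop tdTomato reporter, and the Dicer-CKO_MG mice carried both of these and Dicerf/f. The treatment listed for both groups was tamoxifen at 75 mg/kg from postnatal day 11 to 14, and tdTomato+ cells of adult retinas were sorted by FACS. The sorts of 40 wt retinas and of 26 Dicer-CKO_MG retinas were each pooled into 1 library, although a protocol field of the wt sample also gives 26. The study describes its deletion as incomplete, so sorted cells may still hold Dicer1. With 1 library per group no difference has a replicate check and no p-value is given, and fewer cells that carry a miRNA cannot be told apart from less miRNA in each cell.

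Dicer is the enzyme that cuts precursor hairpins into mature miRNAs, so that after its loss no new mature strands of the usual kind are made while older ones decay. The miR-17-92 cluster is a polycistron, with several hairpins in a single transcript that is switched on by Myc and E2F factors, and it is best known for keeping cells in cycle and alive. It is high in progenitors, including those of the nervous system, and lower in resting cells. Its paralogs are the miR-106a-363 cluster on the X chromosome and the miR-106b-25 cluster, which lies in an intron of Mcm7, a gene for a replication licensing factor.

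The 12 mature miRNAs fall into 4 seed groups, the seed being bases 2 to 8, which pair with target mRNAs. The RefSeq sequences (build GRCm38.p6) are given here 5′ to 3′, with the seed in capitals, to show which miRNAs share a seed and how close the partners of the 2 joint probes are. The arm was taken as the one that the unstarred name denotes. The group around miR-17 holds 6 miRNAs with the seed AAAGUGC, known to repress the cell cycle inhibitor Cdkn1a and several E2F genes.
miR-17: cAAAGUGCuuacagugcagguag
miR-106a: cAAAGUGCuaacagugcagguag
miR-20a: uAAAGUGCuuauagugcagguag
miR-20b: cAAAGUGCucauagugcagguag
miR-106b: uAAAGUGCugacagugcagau
miR-93: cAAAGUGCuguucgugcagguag
miR-18a and miR-18b have the seed AAGGUGC, and miR-18a is known to repress Thbs1 and Ctgf, genes of matrix proteins.
miR-18a: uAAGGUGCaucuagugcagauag
miR-18b: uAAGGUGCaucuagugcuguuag
miR-19a and miR-19b have the seed GUGCAAA and are known to act in cell survival.
miR-19a: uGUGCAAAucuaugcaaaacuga
miR-19b: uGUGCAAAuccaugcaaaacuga
miR-25 and miR-92a have the seed AUUGCAC and are known to repress Bcl2l11, which encodes the death-promoting protein Bim.
miR-25: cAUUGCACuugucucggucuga
miR-92a: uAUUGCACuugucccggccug
Counted from the 5′ end, miR-17 and miR-106a differ at 1 position (U10A, with the miR-17 base first), and miR-20a and miR-20b differ at 2 (U1C and U10C). Over their 23 bases miR-19a and miR-19b differ by U11C only and miR-18a and miR-18b by A18U and A20U, yet each of these has a probe of its own.

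The hairpins lie at 3 loci. On chromosome 14, plus strand, Mir17, Mir18, Mir19a, Mir20a, Mir19b-1 and Mir92-1 lie in this order within 836 bp (chr14:115043671-115044506), and the host transcript Mir17hg, as annotated here (chr14:115044390-115046728), holds 1 of these 6 hairpins. On chromosome X, minus strand, 875 bp hold Mir106a, Mir18b, Mir20b, Mir19b-2, Mir92-2 and Mir363 (chrX:52741693-52742567). On chromosome 5, minus strand, Mir106b, Mir93 and Mir25 lie within 498 bp (chr5:138165321-138165818), all 3 inside Mcm7 (chr5:138164583-138172111). miR-106b, miR-93 and miR-25 are therefore read from the chromosome 5 locus alone, miR-18a and miR-19a from chromosome 14 alone and miR-18b from the X alone. The counts of miR-17 with miR-106a, of miR-20a with miR-20b, of miR-19b and of miR-92a cannot be assigned to either chromosome 14 or X.

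In wt MG 7 of the 10 probes were detected, with miR-25 far above the others, and miR-18a, miR-18b and miR-92a were not. In Dicer-CKO_MG only miR-25 was detected, at 28.6% of its wt normalized count. The detection limit of a library was set 2 SD above the average of its 8 negative controls, which gave a raw count of 71.7 in wt and 53.2 in Dicer-CKO_MG. Over the whole panel 30.2% of the 566 mouse probes were detected in wt and 13.6% in Dicer-CKO_MG. The libraries held 695390 and 52644 barcodes on mouse probes, and 90.3% of all mouse probes had the lower raw count in Dicer-CKO_MG, so the lower raw count of all 10 family probes there is read against a panel that was lower as a whole. Raw counts are followed by normalized counts, for which the average negative control was taken off and the rest scaled by positive controls and 4 housekeeping mRNAs. A barcode above background was worth 0.716 normalized counts in wt and 2.74 in Dicer-CKO_MG, and the limits were normalized counts of 23.6 and 90.0.

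miR-25, of the Mcm7 intron, had a raw count of 2080 in wt (95% Poisson interval 1992 to 2171) and 173 in Dicer-CKO_MG (148 to 201). These were 29.0 and 3.25 times the limits of their libraries, and no other family member was above the limit in both. Normalized, the counts were 1461 and 418, a 3.49-fold lower count in Dicer-CKO_MG (95% interval 2.62 to 5.12), or 28.6% remaining (19.5 to 38.1%). These intervals join the counting error with the spread of the negative controls and leave out the error of the scale and any difference between animals. miR-25 met the size rule for a lower count, which asked for at least 2-fold with an interval that excludes equality. When the libraries were scaled to their summed detected miRNAs it stood at 120% (81.6 to 159%), which includes equality. That scale sets the summed count equal in both libraries, and under housekeeping scaling this sum was 23.9% of wt in Dicer-CKO_MG. Any miRNA with more than 23.9% remaining therefore exceeds 100% on it. On the scale of the 100 highest miRNAs 68.8% remained (46.9 to 91.5%), short of the rule. On the positive controls alone 5.27% remained (3.60 to 7.02%). Compared with other miRNAs rather than with housekeeping mRNAs, miR-25 lay 0.69 below the median log2 ratio of the 74 probes detected in both libraries (-1.81 against -1.12). This distance does not depend on the scale but does on the background, with -1.89 against -1.40 after subtraction of the highest negative control. A probe with fewer than 164 wt barcodes could be among the 74 only with a higher normalized count in Dicer-CKO_MG. The median is thus tilted upward, and a place below it is no measure of a stronger fall. Of these 74 probes, 22 had a lower remaining percent than miR-25 and 51 a higher one. As a share of all mouse barcodes it made up 0.299% in wt (exact binomial interval 0.286 to 0.312%) and 0.329% in Dicer-CKO_MG (0.282 to 0.381%), and these intervals overlap. These shares are of raw counts with no background taken off, and background is a larger part of the smaller Dicer-CKO_MG total. They are thus not on an equal footing.

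**Figure D1:**
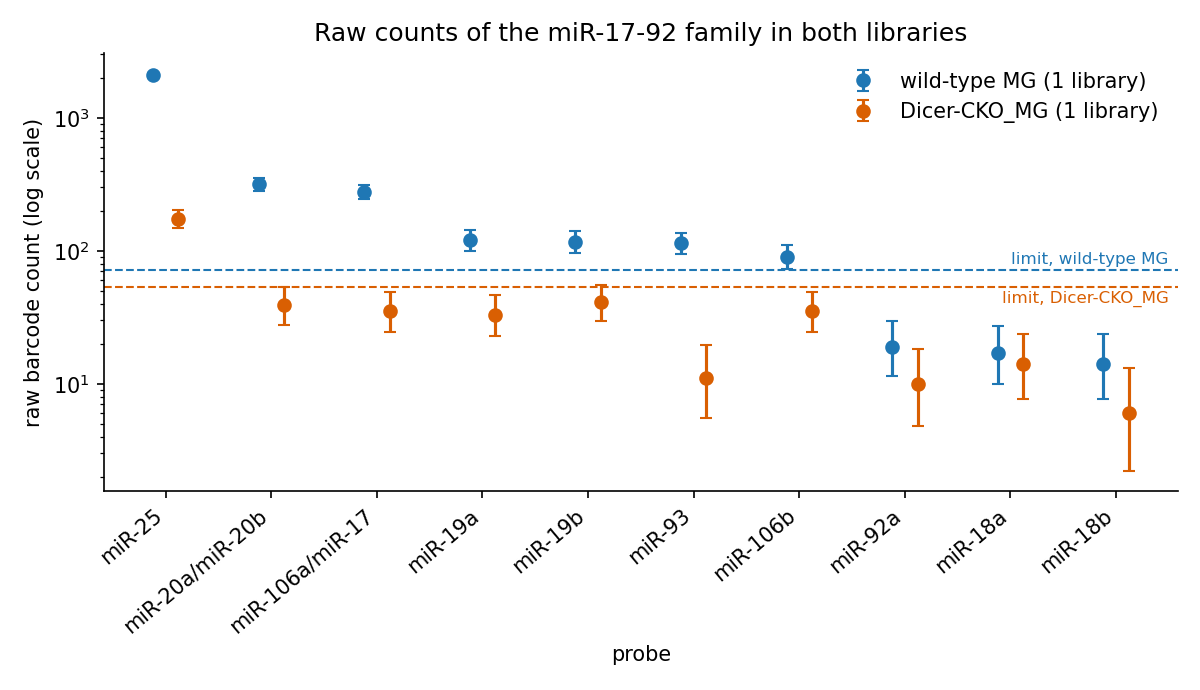
Raw barcode counts (log axis) of the 10 probes of the family in the wt and the Dicer-CKO_MG library, with 95% Poisson intervals as bars and the detection limit of each library as a dashed line. In wt 7 probes lie above their limit, from 90 to 2080 barcodes, and in Dicer-CKO_MG miR-25 alone does, with 173.

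The AAAGUGC group was read by 4 probes, all detected in wt and none in Dicer-CKO_MG. The probe for miR-20a and miR-20b counted 316 barcodes in wt and 39 in Dicer-CKO_MG, and the probe for miR-17 and miR-106a counted 275 and 35. The 2 joint probes thus had nearly the same counts as each other in both libraries, and their wt normalized counts of 199 (160 to 238) and 169 (132 to 208) overlap within error. In Dicer-CKO_MG both were below the limit, so what remained is given as an upper bound at that limit. This bound leaves out the error of the Dicer-CKO_MG count, whose upper ends of 171 and 159 normalized counts lie above the limit of 90.0. For miR-20a and miR-20b the bound was 45.3% (37.8 to 56.2% with the error of the wt count alone), which met the size rule. This call was lost when detection asked for a count above the highest negative control, 100 barcodes or the mean plus 3 SD. It was also lost with no background subtracted and on both scales set by the miRNAs themselves. With the mean plus 2 SD or the highest control subtracted no bound was defined, so no call could be made. For miR-17 and miR-106a the bound was 53.2% (43.3 to 68.2%), just short of 2-fold. On the positive controls alone the 2 bounds were 8.36% and 9.81%, and on the summed detected miRNAs they were 189% and 222%, which leave no direction. With the counts as measured below the limit in place of the bound, 25.7% (0 to 87.5%) and 23.7% (0 to 96.1%) remained, and both met the rule.

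The other members of this group, miR-93 and miR-106b, come from the same intron of Mcm7 as miR-25 but were close to background. miR-93 had raw counts of 114 in wt and 11 in Dicer-CKO_MG, the latter below the mean of the negative controls (20.4). miR-106b had 90 and 35, the weakest detection of the family in wt at 1.26 times the limit. Its wt count is matched by a probe for a viral miRNA, a class that should have no target here, with 91 barcodes. Their upper bounds, 167% for miR-93 and 245% for miR-106b, lie above 100%, so no direction was measurable for either. The miR-106b-25 locus was thus the only one of the 3 with all of its members detected in wt, and their wt normalized counts ran from 36.8 (miR-106b) and 54.0 (miR-93) to 1461 (miR-25). Probes differ in how well they capture their miRNA, and the order of counts between probes need not be the order of molecules.

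The GUGCAAA group was present in wt at low counts. miR-19a, from chromosome 14 alone, had 120 barcodes in wt and 33 in Dicer-CKO_MG, and miR-19b, from both chromosomes, had 117 and 41. Their wt normalized counts of 58.3 and 56.1 differed by less than their errors (25.2 to 92.3 and 23.1 to 90.1). Both were below the limit in Dicer-CKO_MG, with bounds of 155% and 160.5%. A wt raw count of 164 was needed for an unchanged miRNA to reach the limit of the Dicer-CKO_MG library, and the 4 probes for miR-19a, miR-19b, miR-93 and miR-106b fell short of it. For these 4, the lack of detection in Dicer-CKO_MG therefore gives no measure of a change.

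miR-92a, miR-18a and miR-18b were not detected in either library. miR-92a has the same seed as miR-25. Its hairpins lie last in the chromosome 14 cluster and next to last, before Mir363, in the X cluster. miR-92a had 19 barcodes in wt and 10 in Dicer-CKO_MG. miR-18a had 17 and 14, and miR-18b had 14 and 6. All of these are below the mean of the negative controls in their libraries, 38.6 in wt and 20.4 in Dicer-CKO_MG, so no fold is given. Of the 6 probes that read the chromosome 14 polycistron, 4 were thus above the limit in wt and 2, for miR-18a and miR-92a, were below the average background.

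**Figure D2:**
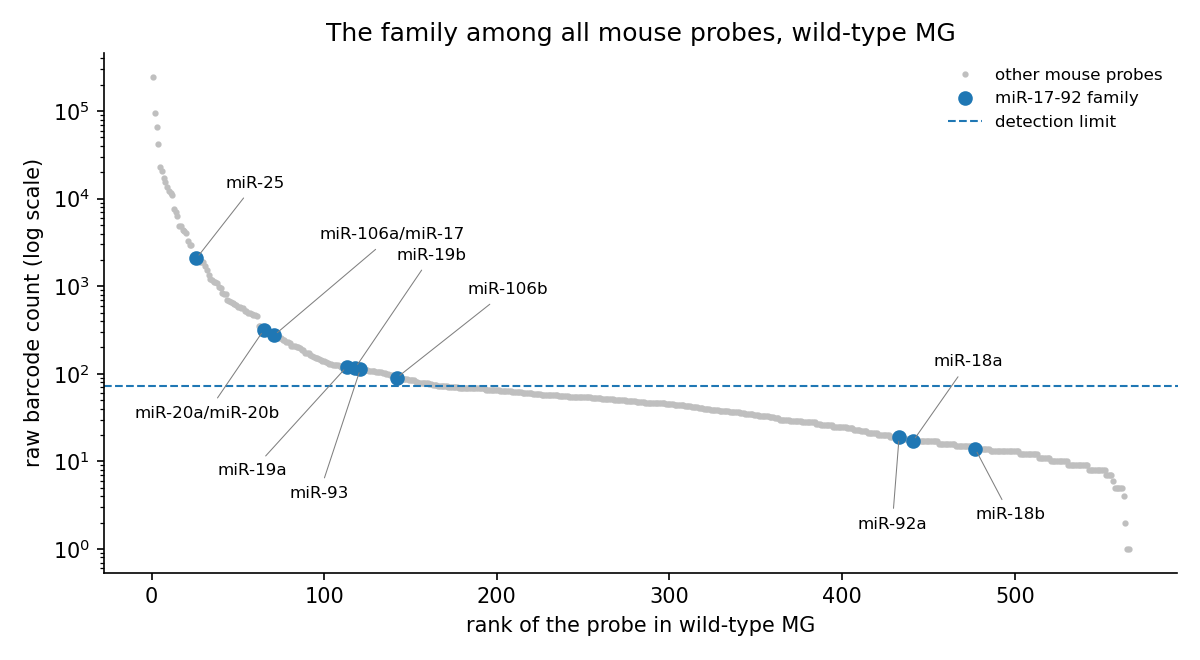
Raw barcode counts (log axis) of all 566 mouse probes in the wt library against their rank, with the 10 family probes as large points and the detection limit as a dashed line. By raw count miR-25 is rank 26, the probes for miR-20a with miR-20b and for miR-17 with miR-106a are ranks 65 and 71, and miR-92a, miR-18a and miR-18b lie in the tail below the limit.

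Of the 174 mouse probes detected in either library, 52 met the rule for a lower count in Dicer-CKO_MG (29.9%) and 13 that for a higher count (7.47%). In the family 2 probes of the 7 detected in either library were lower, miR-25 and the probe for miR-20a and miR-20b, a share near that of the panel. No family probe was called higher, but the 6 probes detected in wt alone are upper bounds, which cannot be called higher, so that only miR-25 could have been. The panel counts turn on the scale as well. They were 119 lower and 2 higher on the positive controls, 105 and 3 with no scaling, and 5 and 25 on the summed detected miRNAs. Summed over the 7 probes, the normalized count was 2034 in wt and 640 in Dicer-CKO_MG, or 31.5% (23.2 to 47.4%). Of the 640, the part that is not miR-25 comes from counts below the Dicer-CKO_MG limit, and with these 6 probes set at the limit the sum was 47.1% (38.7 to 63.2%). miR-25 alone held 71.8% of the wt sum, and without it the remaining 6 probes summed to 573 and 222, or 38.8% (20.8 to 90.9%) from counts below the limit and 94.3% (73.4 to 149%) with all of them at the limit. The whole family made up 0.421% of the normalized count of detected miRNAs in wt MG, and the summed normalized count of all detected miRNAs in Dicer-CKO_MG was 23.9% of that in wt. The family sum stood at 132% (96.9 to 198%), which includes equality, when libraries were scaled to their detected miRNAs.

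**Figure D3:**
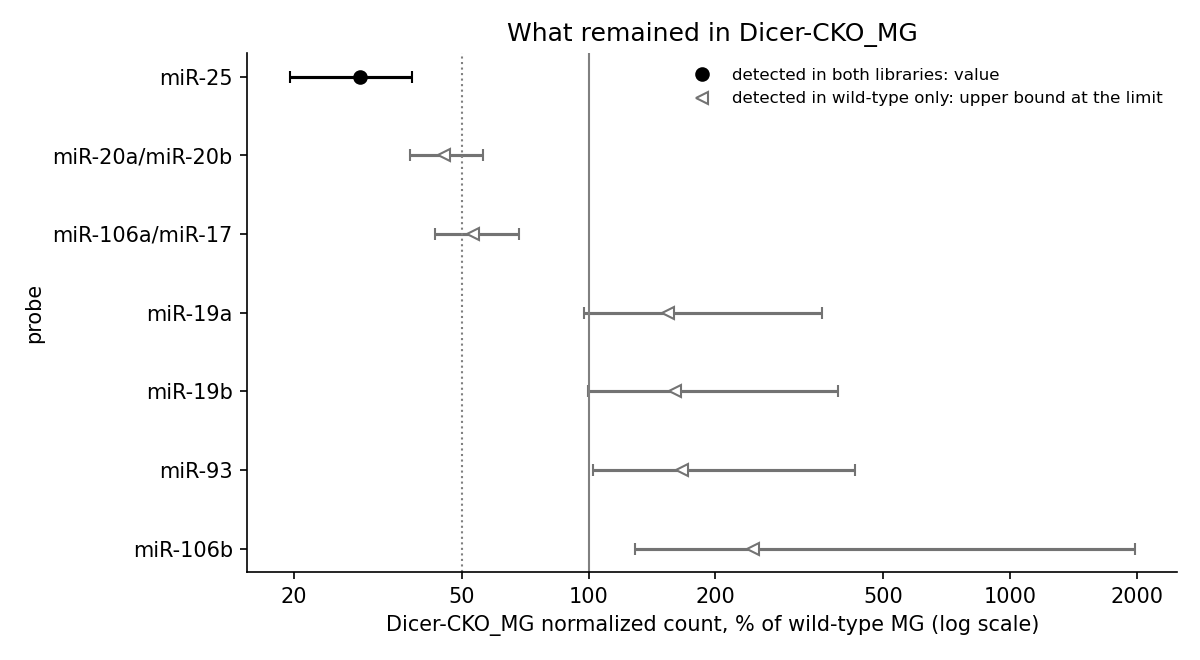
Normalized count in Dicer-CKO_MG as a percent of wt (log axis) for the 7 probes detected in wt. The filled point is miR-25 with its 95% interval (28.6%, on the summed-miRNA scale 120%), open triangles are upper bounds at the Dicer-CKO_MG limit with the error of the wt count, the solid line marks 100% and the dotted line a 2-fold fall. The bounds of miR-19a, miR-19b, miR-93 and miR-106b lie above 100%.

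How much of the family remained below the limit in Dicer-CKO_MG turned on a single background probe. Of the 8 negative controls in that library one had 59 barcodes and the others 7 to 21. Without this control, left out of both libraries, the limit fell to 26.0 raw counts and 6 family probes passed it, as 184 mouse probes of the panel did in place of 77. They were miR-25 and the probes with 33 to 41 barcodes. miR-20a with miR-20b then stood at 32.1% (7.58 to 61.1%) and miR-17 with miR-106a at 31.3% (3.32 to 64.8%), and both met the size rule beside miR-25 at 28.9% (23.5 to 34.8%). For miR-19a (79.9%), miR-19b (119%) and miR-106b (137%) the intervals included equality.

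The 33 probes for viral miRNAs offer a second background. In Dicer-CKO_MG they ran from 3 to 32 barcodes, with a median of 18, and the same 6 family probes were above the highest of them, miR-19a by a single barcode. In wt the viral probes ran from 5 to 91 with a median of 42, and 6 family probes were above them, all of those detected except miR-106b. With the viral probes used as background, 5 family probes passed the Dicer-CKO_MG limit of 34.8, among which miR-17 with miR-106a, and miR-106b, both at 35, were just above it. miR-93 and the undetected probes miR-92a, miR-18a and miR-18b lay among the viral probes in Dicer-CKO_MG.

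**Figure D4:**
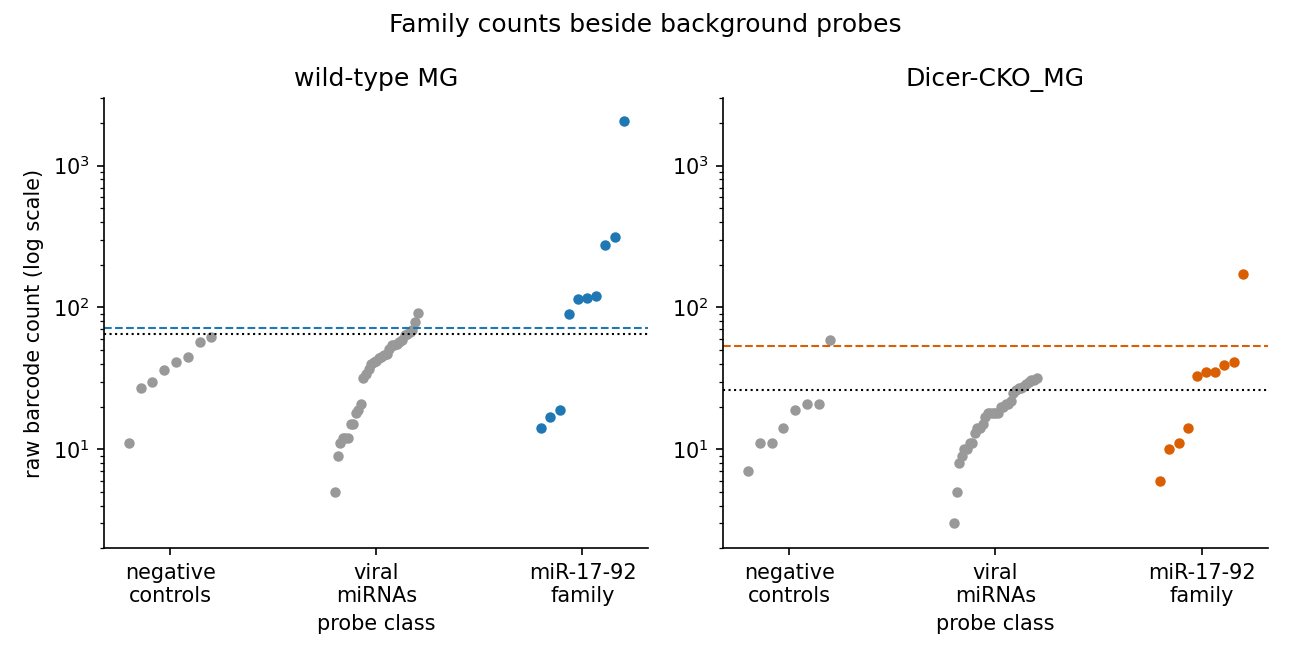
Raw barcode counts (log axis) of the 8 negative controls, the 33 viral miRNA probes and the 10 family probes, each point a probe, in wt (left) and Dicer-CKO_MG (right). Dashed lines mark the limit from all 8 controls (71.7 and 53.2) and dotted lines the limit without the control that had 59 barcodes in Dicer-CKO_MG (64.6 and 26.0), between which 5 family probes lie in Dicer-CKO_MG.

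miRNAs with the closest wt counts were used to set the family beside others of like depth. Nearest to miR-25 (1461) were let-7f (wt normalized count 1426), let-7i (1510) and miR-342-3p (1516), of which 68.5% (57.5 to 80.2%), 31.3% (22.4 to 40.7%) and 31.6% (22.6 to 40.9%) remained. On the summed detected miRNAs these turned to 286%, 131% and 132%, as miR-25 did. Nearest to miR-20a with miR-20b (199) were miR-129-3p (196), miR-1896 (193) and miR-211 (208). miR-1896 was below the limit in Dicer-CKO_MG as the family probe was, with a bound of 46.7%, while the counts of miR-129-3p and miR-211 were 3.23-fold (2.37 to 4.36) and 2.88-fold (2.10 to 3.88) higher there under housekeeping scaling, although their raw counts were lower (252 against 313 and 239 against 329) and on the positive controls 59.5% and 53.1% remained. A wt count at this level could therefore be followed by a measurable count in Dicer-CKO_MG. Both examples, however, were called higher under housekeeping scaling, and miR-129-3p is also among the neuronal markers considered below.

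The comparison lists include miRNAs of opposite repute and of equal seed. The miR-15/16 seed family, which represses cyclins and slows the cycle, was detected for 5 of 6 probes in wt, and 3 of these met the rule for a lower count, with 46.3% of miR-16, 38.3% of miR-15a and 26.8% of miR-15b remaining. miR-195 (41.1 normalized counts in wt) and miR-322 (61.8) were below the limit in Dicer-CKO_MG, as the weaker members of the miR-17 group were. Their upper bounds, 219% and 146%, lie above 100%, so no direction was measurable for either. In the let-7 family, which marks mature and resting cells, 9 of 9 probes were detected in wt and 7 were lower. The median remaining over the 8 detected in both libraries was 32.3%, against 46.1% over the 74 such probes of the panel, a median tilted upward by that detection. The 7 lower were let-7a (33.3%), let-7b (21.5%), let-7c (38.1%), let-7d (26.8%), let-7e (26.0%), let-7g (44.4%) and let-7i, while let-7f was short of 2-fold and miR-98 (119.8 normalized counts in wt) was below the limit in Dicer-CKO_MG. Of the 6 probes for the miR-34 family, linked to cell cycle arrest by p53, miR-34a alone was detected, in wt only, with 99 barcodes against 25. Its upper bound of 208% leaves no direction. On the summed detected miRNAs and on the 100 highest miRNAs none of the let-7 or miR-15/16 probes met the rule for a lower count, and on the sum let-7f met that for a higher one.

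Outside the rule, 4 probes share the seed AUUGCAC with miR-25 and miR-92a. miR-92b was at the edge of detection in wt with 73 barcodes and had 12 in Dicer-CKO_MG. miR-32 (63 and 16), miR-367 (55 and 24) and miR-363 (9 and 6), the last of these from the X cluster, were detected in neither library. Among the 6 probes with this seed, miR-25 thus had by far the highest count in wt MG and was the only one above the limit in Dicer-CKO_MG. The others had fewer than the 164 wt barcodes that an unchanged miRNA needed to reach that limit. Their lack of detection there therefore gives no measure of a change.

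Markers of MG and of other cells moved between the libraries, and their part in the family's values was not tested. The 6 MG markers, among them miR-204, were all detected and all lower in Dicer-CKO_MG under housekeeping scaling (4 on the 100 highest miRNAs and 2 on the summed miRNAs), with a summed normalized count of 350527 in wt and 54114 in Dicer-CKO_MG. Of neuronal markers 2 of 6 were higher there (sum 1151 and 8306), and miR-124 made up most of that sum (839 and 7503). The neuronal miR-137, miR-138 and miR-218 were below the limit in Dicer-CKO_MG, with lower raw counts than in wt. Of photoreceptor markers 2 of 3 were higher (402 and 3315), of immune cell markers 3 of 6 (297 and 1346) and of vascular markers 1 of 4 (139 and 865). Over the panel 13 of the 174 probes detected in either library were called higher (7.47%) and 52 lower (29.9%). These panel shares count detected probes only, whereas the marker counts above are over all listed probes. Detected in either library were 4 neuronal, 2 photoreceptor, 4 immune cell and 1 vascular marker. The immune miR-155 had 1 barcode in each library, and the 3 erythroid markers were detected in neither. These 8 higher calls among 22 markers of other cells rest on the housekeeping scale too. On the positive or the ligation controls 1 was left, miR-96, and 1 neuronal marker was called lower. With no scaling 2 were left, miR-96 and miR-124, while on the 100 highest and on the summed miRNAs there were 10.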

How the data were processed

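Sorted MG of wt and Dicer-CKO_MG mice were profiled on a NanoString nCounter miRNA panel, 1 pooled library per group. The authors deposited raw counts of barcodes for 626 probes per library. They also deposited normalized counts for 614 probes, treated here as a score, made with nSolver software from 4 housekeeping genes, 8 negative and 6 positive controls, by a background step not given in the sources used here.

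Libraries were matched by probe accession, since 9 joint probes are written differently. From the raw counts the average negative control was subtracted from every probe, followed by scaling to the geometric means of the positive controls and then of the housekeeping genes (NumPy, SciPy). Intervals (95%) joined exact Poisson limits of each raw count with the spread of the negative controls (7 degrees of freedom). They cover counting and background error only. The method was tested on simulated counts. Interval coverage and lower calls were checked there only for probes of high wt count, which in the family means miR-25 alone. Every member probe, the detected members of the lists and the 3 probes nearest to each of the 2 highest members were named, as the rule set. Members, lists and tests were chosen with earlier results of these data known. The effects of 22 listed alternatives, and of 3 that were chosen after seeing the data, are given in the closing section.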

Additional observations from a re-analysis of the deposited data

Results flagged for a closer look

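Probes for viral miRNAs should find no target in mouse MG, yet 2 of the 33 exceeded the wt detection limit of 71.7 raw counts. They were the probe mghv-miR-M1-7-5p with 91 barcodes and mcmv-miR-m59-2 with 79, and none of the 33 exceeded the limit in Dicer-CKO_MG. Among the family, the wt count of miR-106b (90) is of this size, and those of the other 6 detected probes are higher.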

How the results depend on the processing

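The number of probes called lower in Dicer-CKO_MG (2 under the settings used) was 1, miR-25, when detection asked for a count above the highest negative control, above 100 raw counts or above the mean plus 3 SD, and when no background, the mean plus 2 SD or the highest negative control was subtracted (under the last 2 no bound was defined). It was 6 with positive or with ligation controls as the scale, 4 with no scaling, 0 with the sum of detected miRNAs or the 100 highest miRNAs, and 0 at 4-fold. The panel moved alike, with 119, 118, 105, 5 and 13 of its 174 probes lower with positive controls, ligation controls, no scaling, the sum and the 100 highest. The summed count remaining (31.5%) was 5.80% with positive controls, 6.01% with ligation controls, 8.23% with no scaling, 75.6% with the 100 highest miRNAs and 132% with the sum of detected miRNAs, where miR-25 stood at 120%. It was 20.6% after subtraction of the mean plus 2 SD and 20.3% after subtraction of the highest negative control. The median log2 ratio of probes detected in both libraries rests on miR-25 alone (-1.81) and was -4.25, -4.19, -3.74, -0.54 and 0.26 on the same 5 scales, in that order. These scales moved the median of all 74 probes too, by -2.44 with positive controls, 1.26 with the 100 highest and 2.06 with the summed miRNAs. Among the alternatives added later, 6 probes were detected in Dicer-CKO_MG without the highest negative control, with a median of -0.98, and 5 with the viral probes as background. Other values of these results, among them those without each housekeeping gene, with arithmetic means and with the deposited normalized counts, stayed within the main interval or within 1.5 times the main count. No paired analysis was possible because each group has 1 library. Depth limits the Dicer-CKO_MG library most, where 1 barcode is worth 2.74 normalized counts.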
